A study of Homo sapiens with 5 samples.

Results

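The binding sites described here are the SF-1 chromatin immunoprecipitation peaks that lay at the promoters of protein-coding genes. A peak was a member when its centre fell within 1 kb of the outermost annotated start of a protein-coding gene in the hg19 build of the human genome. Of the 30372 peaks in 4 lists, 5415 met this rule, and they lay at 3987 of 20163 protein-coding genes. The cells were H295R/TR SF-1, a subclone of the established adrenocortical tumor line H295R carrying a doxycycline-inducible SF-1. Cells at basal dosage had no doxycycline and those at overexpressed dosage had 3 days of it before fixation, and the chromatin of each dosage was precipitated with an anti-SF-1 antibody from Millipore and with another from Perseus Proteomics. Every list was called by the authors on 3 pooled libraries against the same input DNA, so there was 1 list for each combination, no replicate error, and no list independent of the shared input. The number of reads behind a list is unknown, and the intervals given below cover counting error only.

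SF-1, a nuclear receptor encoded by NR5A1, attaches to DNA as a single molecule and is required for the development of the adrenal gland and gonads. It recognises a short sequence built around the letters CAAGG, and its classical targets are genes of steroid hormone synthesis such as STAR and CYP11A1. Promoters are the stretches around a transcription start, and those of widely expressed genes are usually rich in G, C and CpG dinucleotides. Neighbouring genes on opposite strands can start close together and share such a stretch, which is then called a divergent promoter.

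The sequences below come from promoter sites that had overlapping peaks in all 4 lists and the SF-1 consensus within the called peak of at least 1 of them. They are shown because the site was called in every list and held the sequence that SF-1 is known to bind. The printed copy need not lie in the peak of every list. At TMEM268 only the basal Millipore peak covered it, and at UQCR10 only the overexpressed Millipore peak did. The consensus has 9 letters, a pyrimidine, CAAGG, a pyrimidine, C and a purine, and was searched on both strands without mismatch. It is in capitals, with 10 flanking bases of the reference genome on each side, written 5′ to 3′ in the direction of the consensus.

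GFI1B: cgtgaaagggCCAAGGCCGacggcggcct
H4C9: aaatctcggcCCAAGGTCAcctgtagtca
NECTIN3: ggcagtggctCCAAGGTCAagctgccggt
KLHL18: acatgcgaagTCAAGGTCGagatagcgag
AP5M1: actggctagcCCAAGGTCAcgcagctatt
MRPL48: ctgcacctggTCAAGGCCGttccttcagt
DPP8: gcctccgaggCCAAGGCCGctgctactgc
CPPED1: ggaagttaggTCAAGGCCAaggaggctcc
ATP5F1B: gttccccggcTCAAGGTCAtggggcggca
NOM1: ccgtcccgggTCAAGGCCAaggccacggc
UQCR10: tcaggcgggtCCAAGGTCAgggatggcac
SOCS7: atatgtgctcCCAAGGCCAgcggcgcgct
DNMT3A: ctctacagggCCAAGGTCGgagcgccagg
TMEM268: agacagctgcCCAAGGCCAaggccgtgta

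The windows of GFI1B and TMEM268 were chr9:135820018-135820046 and chr9:117374172-117374200. Those of H4C9, NECTIN3, KLHL18 and AP5M1 were chr6:27107567-27107595, chr3:110789484-110789512, chr3:47324231-47324259 and chr14:57736199-57736227. Those of MRPL48, DPP8, CPPED1 and ATP5F1B were chr11:73498910-73498938, chr15:65809987-65810015, chr16:12897327-12897355 and chr12:57039557-57039585. Those of NOM1, UQCR10, SOCS7 and DNMT3A were chr7:156742867-156742895, chr22:30163548-30163576, chr17:36507466-36507494 and chr2:25565558-25565586. The consensus read on the minus strand at H4C9, AP5M1, DPP8 and UQCR10 and on the plus strand at the others. The peaks of H4C9 and NOM1 held 2 copies and that of TMEM268 held 3, of which the copy with the lowest coordinate is shown. The copy nearest to its start was that of MRPL48, a protein of the mitochondrial ribosome, with the middle of the word 7 bp into the gene. At DPP8, a dipeptidyl peptidase, it lay 41 bp into the gene, and at TMEM268, a membrane protein, 700 bp into the gene.

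The share of peaks at promoters differed between the antibodies, and between the dosages with the Millipore antibody only. With the Millipore antibody the promoter peaks were 184 of 4393 (4.19%, 95% Wilson interval 3.64 to 4.82%) at basal dosage and 1504 of 11910 (12.6%, 12.04 to 13.2%) at overexpressed dosage, a difference of 8.44 percentage points (Newcombe interval 7.58 to 9.26). With the Perseus antibody they were 1748 of 6616 (26.4%, 25.4 to 27.5%) and 1979 of 7453 (26.6%, 25.6 to 27.6%), and differed by 0.132 points (-1.33 to 1.59). The basal Millipore list was therefore the poorest in promoters and both Perseus lists the richest, beyond counting error. Promoter peaks stood high in the Perseus rankings. In the best-ranked 25% of the basal Perseus list 35.1% (32.9 to 37.5%) were promoter peaks, against 18.7% (16.9 to 20.6%) in the last 25%. In the overexpressed Perseus list the shares were 32.5% (30.4 to 34.7%) and 20.8% (19.0 to 22.7%). In the overexpressed Millipore list they were 13.6% (12.4 to 14.8%) and 11.6% (10.5 to 12.7%), and in the basal Millipore list 5.19% (4.03 to 6.67%) and 4.37% (3.31 to 5.74%), where the intervals overlapped. The edge of the rule was not a gap: 12, 64, 55 and 60 peaks of the basal Millipore, overexpressed Millipore, basal Perseus and overexpressed Perseus lists lay 900 to 1000 bp from the nearest start, and 12, 63, 46 and 52 lay 1000 to 1100 bp from it.

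Protein-coding genes with a promoter peak numbered 205 for basal Millipore, 1652 for overexpressed Millipore, 1928 for basal Perseus and 2116 for overexpressed Perseus. These were 1.02%, 8.19%, 9.56% and 10.5% of all protein-coding genes, and 19.8% had a promoter peak in at least 1 list. A gene was reached by more than 1 peak of the same list at 3, 98, 145 and 194 genes in that order. Most bound genes, 2547 of 3987 or 63.9%, were in 1 list only. A further 1003 were in 2 lists, 400 in 3 lists and 37 in all 4, so that 7.14% of all protein-coding genes were in 2 or more lists, 2.17% in 3 or more and 0.184% in all 4. The plot of combinations shows that the 3 largest groups were genes of a single list, followed by the 563 genes found with the Perseus antibody at both dosages and the 361 found in every list except the basal Millipore one.

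**Figure D1:**
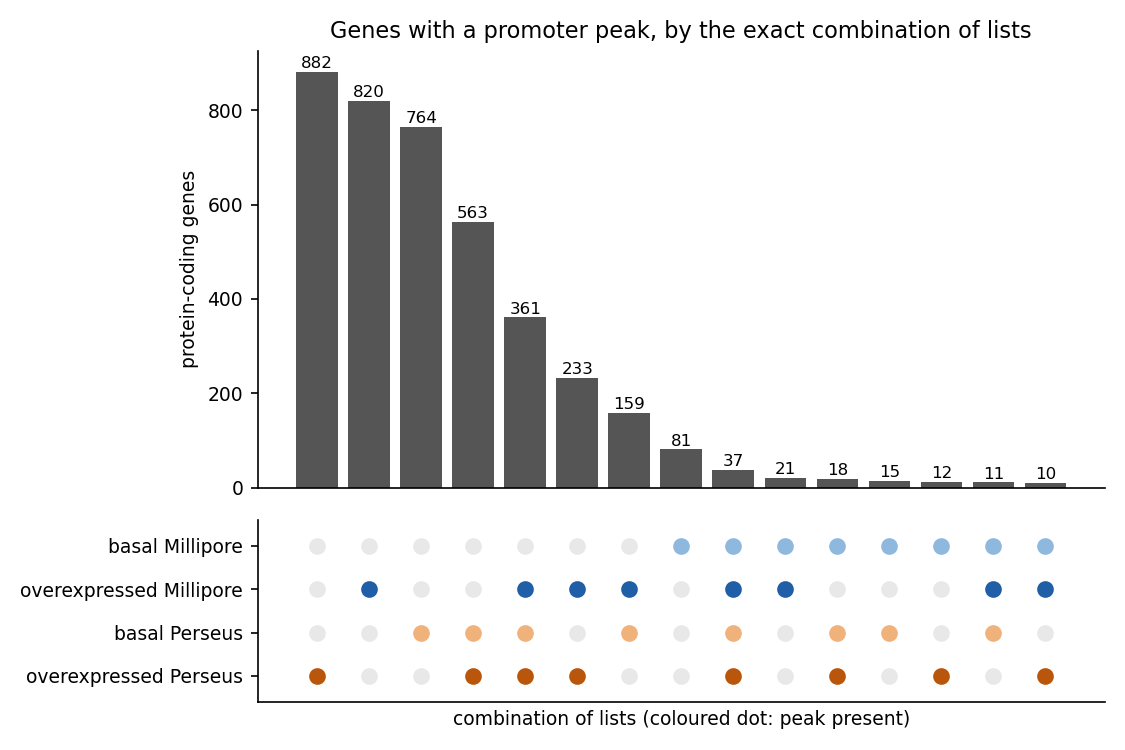
Number of protein-coding genes (vertical axis) with a promoter peak in each exact combination of the 4 lists, with the lists of a combination shown as coloured dots under its bar. Genes of 1 list only make the 3 highest bars (882, 820 and 764 genes), 37 genes were in all 4 lists, and 21 were in both Millipore lists and no other.

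Between dosages with the Perseus antibody 979 genes were shared, which was 50.8% of the basal and 46.3% of the overexpressed genes. With the Millipore antibody 79 genes were shared, or 38.5% of the basal and 4.78% of the overexpressed genes. Between antibodies 81 genes were shared at basal dosage (39.5% of the Millipore and 4.20% of the Perseus genes) and 641 at overexpressed dosage (38.8% and 30.3%). Sharing a gene did not always mean sharing a site. Among the genes shared between dosages with the Perseus antibody the closest peaks had their centres at most 100 bp apart at 738 (75.4%), and among those shared between antibodies at overexpressed dosage at 371 (57.9%). When promoter peaks that overlapped by at least 1 bp were joined instead, 4064 sites resulted, of which 748 held peaks of 2 lists, 244 of 3 and 27 of all 4. In most comparisons promoter peaks overlapped another list more often than other peaks. Of the basal Perseus peaks, 41.3% at promoters and 25.2% elsewhere overlapped an overexpressed Perseus peak. For basal Millipore peaks in the overexpressed Millipore list it was 31.5% and 11.5%. Overlap with the basal Millipore list was lower at promoters, 2.86% against 9.37% for basal and 2.53% against 7.25% for overexpressed Perseus peaks. For overexpressed Millipore it was 3.79% against 4.64%. The basal Millipore list held only 184 promoter peaks and 4209 others, which limits how many promoter peaks could overlap it. Read the other way, 27.2% of its promoter peaks and 10.9% of its other peaks overlapped a basal Perseus peak. With the overexpressed Perseus list it was 27.2% and 9.41%. The lower values therefore cannot be read as weaker sharing at promoters.

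The 37 genes in all 4 lists were led, in the order of the worst of their 4 ranks, by GFI1B, which encodes a zinc finger repressor of blood cell development. Its peaks ranked 15 and 202 with Millipore and 122 and 480 with Perseus, at basal and overexpressed dosage respectively. Their centres lay 663, 713, 663 and 613 bp into the gene in the same order of lists, over a noncoding exon on chromosome 9, and every one of the 4 peaks held the consensus printed above. At MRPL48 the ranks were 117, 296, 637 and 2026, the centres lay 133 or 158 bp into the gene in an intron, and the consensus was again in every peak. At NECTIN3, a cell adhesion molecule, the ranks were 54, 606, 1425 and 817, with centres 532 to 682 bp into the gene in an intron and the consensus in each peak. The same site was thus called in all lists at these genes, with ranks that differed by list.

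Other genes of this group shared a site with a neighbour on the other strand whose transcribed stretch overlapped theirs. A peak 81 to 106 bp upstream of RBM18, which encodes an RNA-binding protein, lay at the same time 318 to 343 bp inside MRRF, which encodes the mitochondrial ribosome recycling factor. It ranked 47, 664, 108 and 594 in the basal Millipore, overexpressed Millipore, basal Perseus and overexpressed Perseus lists and held no consensus in any of them. The peak of KLHL18 and KIF9, a kinesin, ranked 1246, 1522, 614 and 567 in that order, lay 82 to 157 bp upstream of KLHL18 and held the consensus in all 4. Near ATP5ME, a subunit of ATP synthase, and MYL5, a myosin light chain, the ranks were 999, 491, 218 and 495, and none of the 4 peaks held the consensus. Among the rest, H4C9 encodes a core histone, and its peak ranked 228, 445, 286 and 786, lay 589 to 614 bp from the start just past the end of this short gene, and held the consensus in every list. C15orf61 had ranks of 142, 420, 126 and 580, and the best-ranked peaks of its Millipore and Perseus lists did not all coincide, with centres 756, 656, 106 and 106 bp into the gene. Lower-ranked Perseus peaks overlapped those of Millipore, centred at 756 bp (basal, rank 5332) and 681 bp (overexpressed, rank 2604). The overexpressed Millipore list also had a peak at 106 bp, at rank 961. LSR, a lipoprotein receptor, met the rule in all 4 lists with peaks at different places, from 508 bp upstream to 592 bp inside. Of the 37 genes, 22 had the consensus in the 300 bp window of at least 1 promoter peak, beside 2.23% of all protein-coding starts with 1 window each. A CpG-rich start was found for 22 (59.5%, 43.5 to 73.7%), and the interval included the 53.7% of all starts. Chromosome 9 held 8 of the 37, beside 280 of the 3987 bound genes and 799 of all 20163.

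The best-ranked promoter peaks differed between antibodies. In both Millipore lists the best-ranked was that of NPAS4, a neuronal transcription factor induced by activity, at rank 2 of either list and 769 and 869 bp into the gene in an intron. Next in the overexpressed Millipore list came HTR5A, a serotonin receptor, at rank 16 and 134 bp upstream of its start, followed by ANKRD30BL at rank 20. In the basal Millipore list GFI1B followed at rank 15 and CELSR3, a neuronal cadherin, at rank 27. Neither Perseus list held a promoter peak of NPAS4 or HTR5A. The best-ranked promoter peak of both Perseus lists was that of SNX16, a sorting nexin, at ranks 33 and 43, and Millipore peaks lay there too, at ranks 185 (basal) and 1880 (overexpressed).

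Of the 21 genes found in both Millipore lists and no Perseus list, the 5 with the best worst rank were NPAS4, HTR5A, XKR7, EPHA10, an ephrin receptor, and GLRA1, a glycine receptor. XKR7 ranked 42 at basal and 29 at overexpressed dosage, EPHA10 29 and 59, and GLRA1 28 and 95, and each pair of peaks overlapped. SST, which encodes the hormone somatostatin and is named here after its values were seen, had ranks of 316 and 25, and CPLX2, a complexin of synaptic vesicle release, had 584 and 326. The consensus was in the peak windows of 2 of these 21 genes (9.52%, 2.65 to 28.9%), against 130 of 563 genes (23.1%, 19.8 to 26.7%) found in both Perseus lists and no Millipore list. The 5 best of the latter group were SNAP29, a membrane fusion protein, with PI4KA, a lipid kinase, at the same peaks (ranks 87 and 174 at basal and overexpressed dosage), DCUN1D2 with TMCO3 (172 and 63) and SURF6, a nucleolar protein (234 and 121).

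Genes found with both antibodies at 1 dosage only were fewer at basal dosage. At basal dosage alone there were 15, led by FKBP2 at rank 1110 with Millipore and 1130 with Perseus, CELSR3 at 27 and 1207, and ZFP3 at 800 and 1899. At FKBP2 and CELSR3 the peaks of the antibodies lay at different places, 1000 bp upstream against 575 bp inside at FKBP2 and 994 bp inside against 956 bp upstream at CELSR3. At overexpressed dosage alone there were 233, led by NFKBIA, the inhibitor of NF-kappaB, at rank 369 with Millipore and 410 with Perseus. FASTKD3, a mitochondrial RNA-binding protein, followed at 667 and 135, the divergent pair ELP2 and SLC39A6, a zinc transporter, at 736 and 332, and NHLRC1, a ubiquitin ligase, at 525 and 1023. The peaks of the antibodies overlapped at NFKBIA, FASTKD3, ELP2, SLC39A6 and NHLRC1. The consensus was in a peak window at 25 of the 233 genes (10.7%, 7.37 to 15.4%). The basal Millipore list had far fewer promoter peaks than the other 3, so the counts at the 2 dosages cannot be compared as such.

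Steroid synthesis genes had promoter peaks in 1 list each. Of 23 genes in the list, none was in the basal Millipore list (background 1.02%), 3 were in the overexpressed Millipore list (background 8.19%), 1 in the basal Perseus list (9.56%) and 1 in the Perseus list at overexpressed dosage (10.5%), and no gene was in more than 1 list. FDX1, the electron carrier of mitochondrial steroid hydroxylases, had a peak at rank 759 of the basal Perseus list, 28 bp into the gene. CYP11A1, the enzyme that cleaves the cholesterol side chain, had one at rank 3883 of the overexpressed Millipore list, 187 bp into the gene over a coding exon. POR, the electron donor of microsomal P450 enzymes, had one at rank 1942 of that list, 307 bp into the gene, and HSD11B2, which inactivates cortisol, had one at rank 1618, 955 bp upstream. STAR, the protein that brings cholesterol into mitochondria, had one at rank 5743 of the overexpressed Perseus list, 140 bp upstream. Only the HSD11B2 peak, among these 5, held the consensus within it. In all, 5 of the 23 genes (21.7%, 9.66 to 41.9%) had a promoter peak in some list, and the interval included the 19.8% of all protein-coding genes.

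Cholesterol genes were bound at 10 of 33 promoters (30.3%, 17.4 to 47.3%), with 0, 4, 5 and 5 in the basal Millipore, overexpressed Millipore, basal Perseus and overexpressed Perseus lists. The interval included the 19.8% of all protein-coding genes, and the lists held 1.02%, 8.19%, 9.56% and 10.5% of them. CYP51A1, IDI1 and MVD, enzymes of cholesterol synthesis, had peaks in both Perseus lists, and LSS, which forms lanosterol, in both overexpressed lists. The IDI1 peaks ranked 3224 and 4907 at basal and overexpressed dosage and lay 66 and 166 bp upstream, and the MVD peaks ranked 2745 and 6138 and lay 406 and 431 bp upstream. At CYP51A1 the basal and overexpressed peaks were apart, 167 and 842 bp into the gene. The remaining 6 genes were in 1 list each, DHCR7 and SC5D in the basal Perseus list, NPC1, a cholesterol transporter of lysosomes, in the overexpressed Perseus list, and SREBF1, HMGCS1 and STARD4 in the overexpressed Millipore list, the last 3 at ranks of 8716, 10157 and 11183. None of the cholesterol gene peaks held the consensus.

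Among the regulators of adrenal and gonadal development and signalling 4 of 28 genes were bound (14.3%, 5.70 to 31.5%), and the interval included the 19.8% of all protein-coding genes. NR5A1, the gene of SF-1 itself, had a promoter peak in 3 lists and each time at another place. It lay 951 bp upstream of the start at rank 795 of the basal Millipore list, 524 bp into the gene at rank 7317 of the overexpressed Millipore list and 51 bp upstream at rank 6983 of the overexpressed Perseus list, and none of the 3 held the consensus. ATF1, a transcription factor of the cAMP pathway, had overlapping peaks with the consensus 57 bp into the gene, over an intron, in the basal Millipore list (rank 2903), the overexpressed Millipore list (rank 11348) and the basal Perseus list (rank 2752). PRKAR2A, a regulatory subunit of protein kinase A, was in both Perseus lists at ranks 4194 and 2174. CITED2, a cofactor in adrenal development, was in the overexpressed Millipore list at rank 5224 and the basal Perseus list at rank 1555, with the peaks on opposite sides of the start.

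Nuclear receptor genes were bound at 12 of 48 promoters (25%, 14.9 to 38.8%), with 2, 7, 4 and 7 in the basal Millipore, overexpressed Millipore, basal Perseus and overexpressed Perseus lists, against 1.02%, 8.19%, 9.56% and 10.5% of all protein-coding genes. The interval of the overall share again included 19.8%. NR0B2, known as SHP, is a receptor without a DNA-binding domain that represses other receptors. It was the only nuclear receptor gene in all 4 lists, with overlapping peaks centred 409 to 459 bp upstream of its start. With Millipore they ranked 908 at basal and 23 at overexpressed dosage, with Perseus 3060 and 7380, and none of the 4 peaks held the 9-letter consensus. NR2C2 was in 3 lists, NR4A3, of the NR4A family of early response receptors, in both overexpressed lists at ranks 1714 and 2387 but at sites 412 bp upstream and 488 bp inside, and the 8 not yet named, NR2E1, RARG, ESRRA, NR4A1, NR2C1, NR1D2, HNF4G and RXRB, in 1 list each, at ranks of 3532 to 10456.

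The plot of gene classes shows 6 classes bound more often than protein-coding genes as a whole and 4 bound less often, beyond counting error. Beside the 19.8% of all protein-coding genes, promoter peaks in any list were at 23 of 59 genes of DNA replication and the cell cycle (39.0%, 27.6 to 51.7%), 17 of 46 genes of respiratory complex I (36.96%, 24.5 to 51.4%), 24 of 67 spliceosome genes (35.8%, 25.4 to 47.8%), 19 of 56 translation initiation factors (33.9%, 22.9 to 47.0%), 25 of 78 mitochondrial ribosomal proteins (32.1%, 22.7 to 43.0%) and 147 of 508 zinc finger genes named ZNF (28.9%, 25.2 to 33.0%). The intervals of these 6 classes lay above 19.8%. Below it lay those of the potassium channels with 10 of 95 (10.5%, 5.82 to 18.3%), the clustered protocadherins with 3 of 53 (5.66%, 1.94 to 15.4%), the olfactory receptors with 5 of 412 (1.21%, 0.519 to 2.81%) and the keratins and keratin-associated proteins with 1 of 149 (0.671%, 0.119 to 3.70%).

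The interval of every other class included 19.8%. The counts were 11 of 35 aminoacyl-tRNA synthetases, 8 of 28 immediate early genes, 18 of 70 heat shock proteins and J-domain co-chaperones, 7 of 28 Mediator subunits, 8 of 34 ubiquitin-conjugating enzymes, 10 of 48 proteasome subunits, 9 of 49 mitochondrial carriers, 7 of 39 HOX genes, 7 of 39 kinesins, 7 of 40 neuronal genes known as targets of the repressor NRSF/REST, 13 of 82 cytosolic ribosomal proteins and 9 of 64 replication-dependent histones. Of the neuronal genes, 4 were in each Millipore list and 2 in each Perseus list. The 4 of 40 (10%, 3.96 to 23.1%) lay above the 1.02% of all genes in the basal Millipore list and included the 8.19% of the overexpressed one, and the 2 of 40 (5%, 1.38 to 16.5%) included the 9.56% and 10.5% of the Perseus lists. The difference between the antibodies was not tested. Nor was the basal Millipore share particular to the neuronal genes. In that list the intervals also lay above 1.02% for complex I (6.52%, 2.24 to 17.5%) and adrenal and gonadal regulators (7.14%, 1.98 to 22.6%). The same held for kinesins (5.13%, 1.42 to 16.9%), mitochondrial ribosomal proteins (3.85%, 1.32 to 10.7%) and nuclear receptors (4.17%, 1.15 to 14.0%). Each of these had 2 or 3 genes there.

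**Figure D2:**
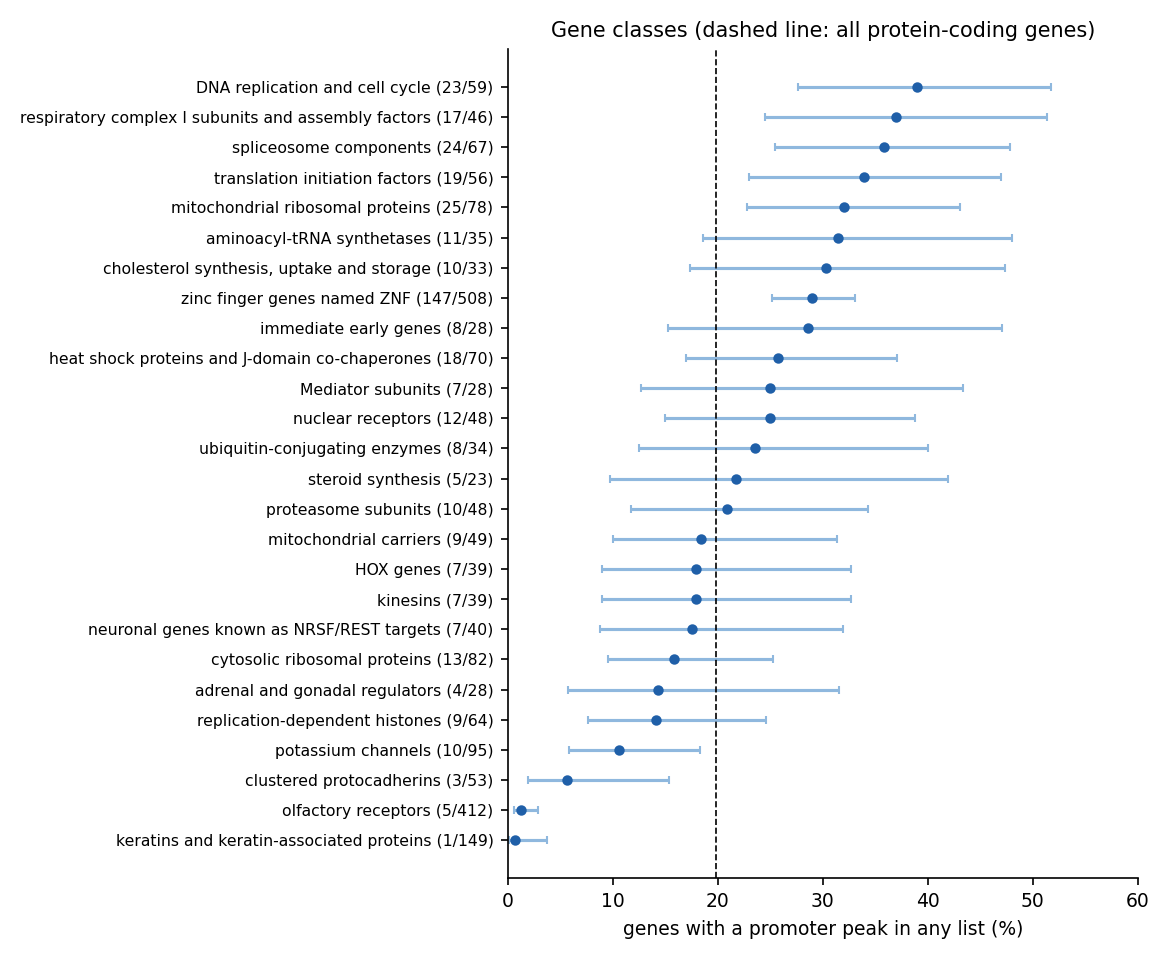
Percent of the genes of each class with a promoter peak in any list (points, horizontal axis) with 95% Wilson intervals, the dashed line marking the 19.8% of all protein-coding genes. DNA replication and complex I genes lie highest at 39.0% and 36.96%, and olfactory receptors and keratins lie lowest at 1.21% and 0.671%.

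The classes differed in the kind of start they have. A start was counted as CpG-rich when the 300 bp around it had a GC content of at least 55% and at least 0.65 of the CpG dinucleotides that its C and G content would give by chance. Of all protein-coding starts 53.7% were CpG-rich, against 0.971% of olfactory receptor and 81.4% of DNA replication gene starts. Among CpG-rich starts alone 28.8% had a promoter peak in some list, against 9.27% of the other starts. With CpG-rich starts only, the shares were 37.9% (22.7 to 56.0%) for complex I, 38.9% (27.04 to 52.2%) for the spliceosome, 38.6% (25.7 to 53.4%) for initiation factors, 32.3% (22.2 to 44.4%) for mitochondrial ribosomal proteins and 33.6% (28.7 to 39.0%) for ZNF genes, and each interval included 28.8%. That of the DNA replication genes, 41.7%, began at 28.8% itself. The potassium channels were below it, with 5 of 47 CpG-rich starts bound (10.6%, 4.63 to 22.6%). The other 3 low classes had few CpG-rich starts, with 0 of 4 bound for olfactory receptors (up to 49.0%), 0 of 3 for keratins (up to 56.1%) and 1 of 4 for protocadherins (4.56 to 69.9%), and each interval included 28.8%.

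Within these classes several genes were in 3 or 4 lists at 1 site. MRPS2, of the small mitochondrial ribosomal subunit, had overlapping peaks 205 to 255 bp upstream of its start in the overexpressed Millipore, basal Perseus and overexpressed Perseus lists, at ranks 2413, 381 and 421, and each held the consensus. MRPL4 had peaks 248 to 298 bp inside the gene at ranks 5025, 801 and 2325 of the same lists. NDUFS7, a core subunit of complex I, was in all 4 lists at ranks 3858, 2360, 80 and 574 without the consensus. LSM3, of the RNA-binding Lsm ring, had peaks with the consensus 242 to 292 bp upstream in the same 3 lists at ranks 5946, 2538 and 1113, and POLE4, a DNA polymerase epsilon subunit, had peaks with the consensus 105 to 130 bp inside at ranks 6313, 1052 and 464. ZNF550 ranked 80, 747 and 94 and ZNF747 3130, 85 and 1262 in those lists, again with the consensus in each peak. HSPA9, a mitochondrial heat shock protein, ranked 2310, 183 and 304 in those lists, 439 to 464 bp into the gene and without it.

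Bound genes had a CpG-rich start more often than all protein-coding genes in every list except the basal Millipore one. The start was CpG-rich for 75.5% (73.4 to 77.6%) of genes in the overexpressed Millipore list, 81.4% (79.6 to 83.1%) in the basal Perseus list and 82.7% (81.0 to 84.3%) in the overexpressed Perseus list, above the 53.7% of all starts. For the basal Millipore genes the share of 57.6% (50.7 to 64.1%) included that value. The promoter peak windows themselves had a median GC content of 55.8%, 65.7%, 68.0% and 68.7% in the basal Millipore, overexpressed Millipore, basal Perseus and overexpressed Perseus lists, against 44.3%, 53.3%, 43.3% and 46.7% at the other peaks and 62.7% at all starts.

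The consensus was searched in the 300 bp around the centre of each peak. It was in 27.7% (21.8 to 34.6%) of the basal Millipore promoter peaks, 13.1% (11.5 to 14.9%) of the overexpressed Millipore, 18.8% (17.0 to 20.7%) of the basal Perseus and 14.9% (13.4 to 16.5%) of the overexpressed Perseus promoter peaks. All 4 lists lay above the 2.23% of all protein-coding starts that hold it in a window of the same size. At the other peaks of the lists the shares were 21.5%, 15.4%, 35.0% and 30.3%. In both Perseus lists promoter peaks held the consensus less often than other peaks, with differences of -16.3 percentage points (-18.5 to -13.9) in the basal list and -15.4 (-17.4 to -13.4) in the overexpressed list. In the overexpressed Millipore list the difference was -2.26 points (-4.02 to -0.334), and -1.10 (-2.63 to 0.621) in the called peak alone. In the basal Millipore list it was 6.17 points (0.0735 to 13.1) in the other direction, which turned to -3.45 points when promoter peaks and other peaks were compared within strata of the same GC content. Within those strata the Perseus differences were -10.6 and -8.66 points.

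**Figure D3:**
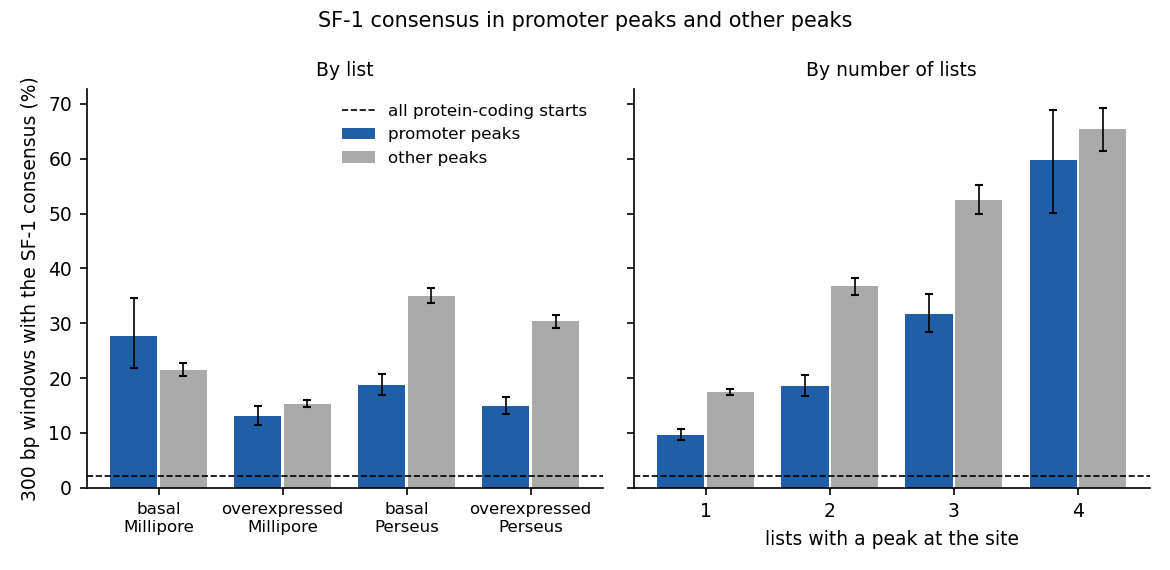
Percent of 300 bp windows around peak centres that hold the SF-1 consensus, for promoter peaks (blue) and other peaks (grey), by list on the left and by the number of lists with an overlapping peak on the right, with 95% Wilson intervals and the 2.23% of all protein-coding starts as a dashed line. Promoter peaks lie below other peaks in both Perseus lists, and both rise with the number of lists, from 9.66% to 59.8% for promoter peaks. On the right a site of several lists is counted in each of them, so its interval is too narrow.

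The consensus was more frequent at sites of more lists. Over all promoter peaks, in which a site in several lists is counted in each of them, 9.66% (8.66 to 10.8%) held it where no other list had an overlapping peak, 18.6% (16.8 to 20.6%) where 2 lists had one, 31.8% (28.4 to 35.3%) with 3 lists and 59.8% (50.1 to 68.8%) with 4. At other peaks the corresponding shares were 17.5%, 36.7%, 52.5% and 65.4%. The 102 promoter peaks with 4 lists stand against 27 joined promoter sites with peaks of all 4 lists. The same DNA is thus counted more than once, and the intervals for 2, 3 and 4 lists are too narrow. As given, the intervals of promoter peaks and other peaks overlapped with 4 lists and did not with 1, 2 or 3. By gene, 133 of the 361 genes in every list but the basal Millipore one had the consensus in a window (36.8%, 32.0 to 41.9%), against 87 of 764 (11.4%, 9.33 to 13.8%) in the basal Perseus list alone and 66 of 820 (8.05%, 6.38 to 10.1%) in the overexpressed Millipore list alone. Not every combination was higher: the share was 10.7% for genes in both overexpressed lists only against 9.98% (8.17 to 12.1%) in the overexpressed Perseus list alone, and 9.52% for genes in both Millipore lists only against 14.8% (8.68 to 24.1%) in the basal Millipore list alone. Genes in more lists also have more windows in which the consensus can be found.

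Peaks close to a start held it less often in 3 of the 4 lists. In the basal Perseus list 12.2% (10.3 to 14.4%) of the promoter peaks centred within 250 bp of the nearest start held the consensus, against 27.1% (24.1 to 30.4%) of those farther away. In the overexpressed Perseus list the shares were 10.6% (8.83 to 12.7%) and 19.2% (16.9 to 21.8%), and in the overexpressed Millipore list 9.84% (7.75 to 12.4%) and 15.4% (13.2 to 18.0%). In the basal Millipore list they were 28.6% and 27.3% and their intervals overlapped. In 3 of the 4 lists promoter peaks near CpG-rich starts held it less often than those near other starts, with a difference of -12.3 percentage points (-17.98 to -7.02) in the basal Perseus list, -5.77 (-10.4 to -1.66) in the overexpressed Millipore list and -5.09 (-10.04 to -0.772) in the overexpressed Perseus list. In the basal Millipore list the difference was 1.60 points (-11.5 to 14.2). No preferred direction of the consensus was detectable. Of 938 copies in the promoter peak windows of all lists, 465 (49.6%, 46.4 to 52.8%) read in the direction of the nearest gene. Copies at sites of several lists were counted in each of them, so this interval is too narrow. More than 1 copy was in 65 of the 871 windows that held any.

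Other short words that are common at promoters were compared in the same windows. The SP/KLF word GGGCGGG was in 48.2% (45.9 to 50.6%) of the basal Perseus and 45.5% (43.3 to 47.7%) of the overexpressed Perseus promoter peaks, against 39.3% of all starts and 61.1% of CpG-rich starts. It was in 30.3% (28.0 to 32.6%) of the overexpressed Millipore and 16.8% (12.1 to 22.9%) of the basal Millipore promoter peaks. The ETS word CCGGAAG was in 16.7% (15.0 to 18.5%) of the basal Perseus promoter peaks, 13.7% (12.2 to 15.3%) of the overexpressed Perseus, 10.8% (9.30 to 12.4%) of the overexpressed Millipore and 9.24% (5.85 to 14.3%) of the basal Millipore ones, against 12.1% of all starts and 18.4% of CpG-rich starts. The SP/KLF word was thus more frequent with Perseus than with Millipore. NRF1, searched as GCGCATGCG, was in 3.95% (3.13 to 4.97%) of the basal Perseus promoter peaks and 1.67% (1.19 to 2.33%) of the overexpressed Perseus ones, against 2.31% of all starts. YY1, searched as AAGATGGCG, was in 3.09% and 2.68% of these, against 2.34% of all starts.

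The NF-Y word CCAATCA was rarer in the promoter peaks of each list, at 2.17 to 3.78%, than at all starts, 7.37% of which held it. The TATA word TATAAA was in 2.73 to 3.66% of the promoter peaks of the overexpressed Millipore and both Perseus lists, against 9.21% of all starts and 3.14% of CpG-rich starts. In the basal Millipore list it was in 5.43% (2.98 to 9.71%), and the interval included the value of all starts. The cAMP response element TGACGTCA was in 1.09 to 2.75%, against 2.17%. The E-box CACGTG was in 9.32% (8.05 to 10.8%) of the basal Perseus promoter peaks and in 2.72 to 8.19% in the other lists, against 7.75%. The words ACTACAATT and TCTCGCGAG were in at most 0.400% and 0.606% of the promoter peaks of any list, against 0.352% and 0.818% of all starts. Windows at peaks were centred on the peak and those at starts on the start itself, and a match to a short word is a description of the sequence and not a binding event. All words were read on both strands, and ACTACAATT and TCTCGCGAG, like the others, may overlap each other or the SF-1 consensus.

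Promoter peaks lay around the start with more of them on the gene side. The median position relative to the nearest start, counted as positive in the direction of transcription, was 168.5 bp (interval 26 to 283) for the basal Millipore list, 129 bp (105 to 156) for the overexpressed Millipore, 51.5 bp (35 to 67) for the basal Perseus and 130 bp (111 to 149) for the overexpressed Perseus list. Peaks upstream of the start made up 41.3%, 37.4%, 42.2% and 35.7% in that order. The concentration at the start was strongest in the basal Perseus list, where 56.1% (53.8 to 58.4%) of promoter peaks were centred within 250 bp of it, against 50.1% (47.9 to 52.3%) in the overexpressed Perseus, 41.9% (39.4 to 44.4%) in the overexpressed Millipore and 30.4% (24.2 to 37.4%) in the basal Millipore list. The nearest start among all transcripts of protein-coding genes was also taken in place of the outermost one. The medians were then 44.5 bp and 26 bp in the basal and overexpressed Millipore lists, and -5 bp and 8 bp in the basal and overexpressed Perseus lists. The extent of the lean to the gene side thus depended on that choice, and with Millipore the medians stayed on the gene side.

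**Figure D4:**
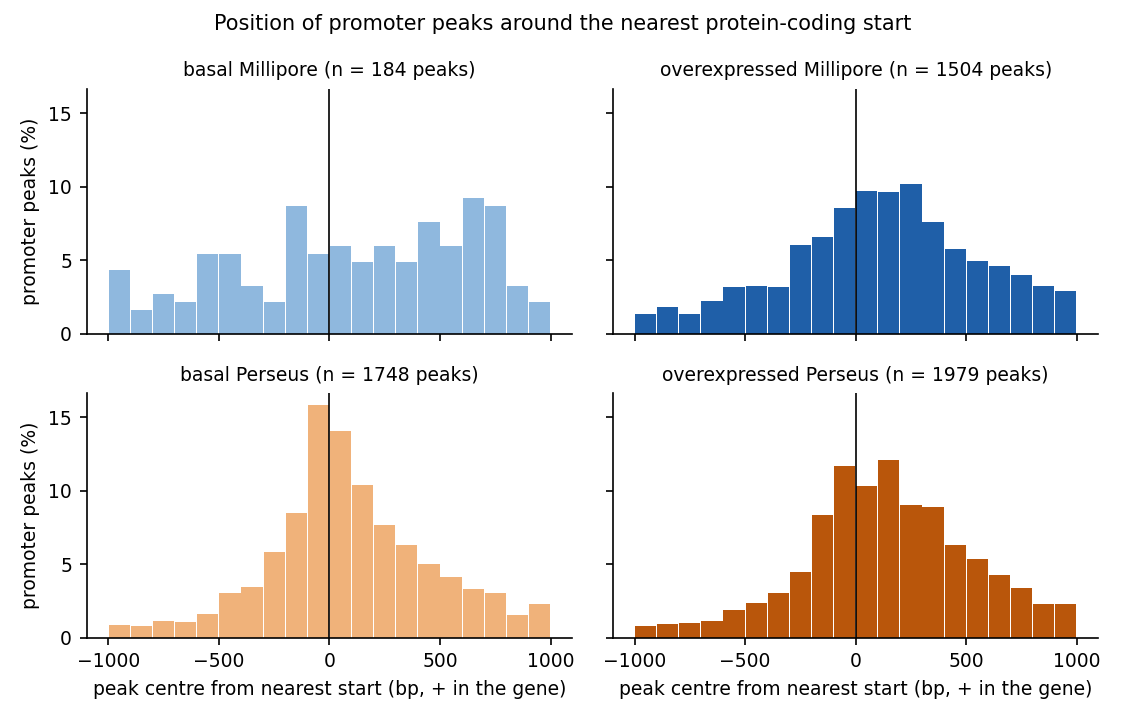
Percent of the promoter peaks of each list (vertical axes) in 100 bp bins of the distance from the peak centre to the nearest outermost protein-coding start, with positive values inside the gene and 0 marked by a line. The Perseus lists are concentrated around the start, and the basal Millipore list, with 184 peaks, is spread over the whole range.

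The 5415 promoter peak centres lay upstream of the nearest gene in 38.5% of cases, in an intron in 24.03%, over an untranslated exon in 23.7%, over a coding exon in 10.4% and over a noncoding exon in 3.29%, and past the end of a short gene in 9 cases. The intron share was 34.2% (27.8 to 41.4%) in the basal Millipore list and 20.3% (18.4 to 22.2%) in the basal Perseus list, and the untranslated exon share 14.1% (9.83 to 19.9%) and 26.2% (24.2 to 28.3%). In the overexpressed lists the intron share was 25.5% (23.3 to 27.7%) for Millipore and 25.3% (23.4 to 27.3%) for Perseus.

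Bound genes more often had a divergent protein-coding partner, here a gene on the other strand whose start lay head to head within 1 kb. Such a partner was annotated for 1703 of all 20163 protein-coding genes (8.45%) and for 554 of the 3987 bound genes (13.9%, 12.9 to 15.0%). In the lists the share was 12.7% (8.80 to 17.9%) for basal Millipore, 14.4% (12.8 to 16.2%) for overexpressed Millipore, 15.4% (13.9 to 17.1%) for basal Perseus and 14.9% (13.5 to 16.5%) for overexpressed Perseus. Divergent starts are often CpG-rich, and among CpG-rich starts 14.9% (13.7 to 16.2%) of the bound and 11.4% (10.7 to 12.2%) of the unbound genes had a partner. A peak at such a promoter counts for both genes, so these genes are not independent. A gene with a partner thus has more chances to be called bound, which by itself raises these shares, also among CpG-rich starts. The share with each peak given to its nearest gene only was not computed. The excess therefore cannot be read as a preference for divergent promoters. Of 883 annotated head-to-head pairs, 283 (32.0%) had a peak within 1 kb of both starts in some list, 76 of them in 2 lists, 40 in 3 and 3 in all 4. The starts of the bound pairs were a median of 129 bp apart, those of all pairs 131 bp. Of the 494 peaks counted at bound pairs, 96 (19.4%) had their centre between the starts.

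The 3 pairs bound in all 4 lists were EXOC5/AP5M1, ZMAT5/UQCR10 and SKA3/MRPL57. EXOC5, a subunit of the exocyst, and AP5M1, of the AP-5 adaptor complex, start 19 bp apart on chromosome 14. Their best-ranked peaks were 608 to 708 bp into AP5M1 in an intron, with the consensus in each, at ranks 1804, 1215, 1634 and 403 of the basal Millipore, overexpressed Millipore, basal Perseus and overexpressed Perseus lists. ZMAT5, a protein of the minor spliceosome, and UQCR10, of respiratory complex III, start 358 bp apart, and their best peaks ranked 4013, 5396, 3796 and 4561, with the consensus inside the called peak in the overexpressed Millipore list and in the 300 bp window in all 4. SKA3, of the kinetochore, and MRPL57 start 106 bp apart. Their Millipore peaks lay 603 bp inside MRPL57 at basal dosage (rank 3799) and 197 bp upstream of it at overexpressed dosage (rank 9812), whereas the Perseus peaks lay 122 and 172 bp upstream at ranks 447 and 2045. Among the pairs in 3 lists was JMJD6/METTL23, 31 bp apart, with ranks of 719, 546 and 752 in the overexpressed Millipore, basal Perseus and overexpressed Perseus lists and no consensus in any of these peaks.

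More than 1 protein-coding start lay within 1 kb of 12.5% of the basal Millipore promoter peaks, 15.6% of the overexpressed Millipore, 17.6% of the basal Perseus and 15.6% of the overexpressed Perseus ones. The most starts at a peak were 6, at a site on chromosome 1 where the annotation places NOTCH2NLA, NOTCH2NLR, NOTCH2NLB, NOTCH2NLC, NBPF10 and an unnamed gene together. The NOTCH2NL genes among them are near-identical copies, and the annotation used was mapped to hg19. Peaks there could thus not be assigned to a gene with certainty, and how reads were assigned was not examined. The same caution applies to NBPF1 and ANKRD30BL.

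Bound promoters were unevenly spread over the chromosomes. Chromosome 9 had the largest share of its protein-coding genes bound in each of the 4 lists, at 21, 137, 152 and 180 of 799 genes in the basal Millipore, overexpressed Millipore, basal Perseus and overexpressed Perseus lists. In any list 35.0% of chromosome 9 genes were bound, followed by 30.3% on chromosome 15 and 27.6% on chromosome 19, against 4.37% on the X chromosome. Peaks outside promoters were also dense on chromosome 9, with 7.96 per Mb on chromosome 9 in the overexpressed Millipore list against 3.67 over all chromosomes, and 4.46 against 1.92 in the overexpressed Perseus list, though chromosome 19 had more, with 11.3 and 5.79. On the X chromosome these lists held 0.754 and 0.364 peaks per Mb outside promoters. CpG-rich starts made up 57.9% of the genes of chromosome 9 and 43.8% of those of the X chromosome.

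**Figure D5:**
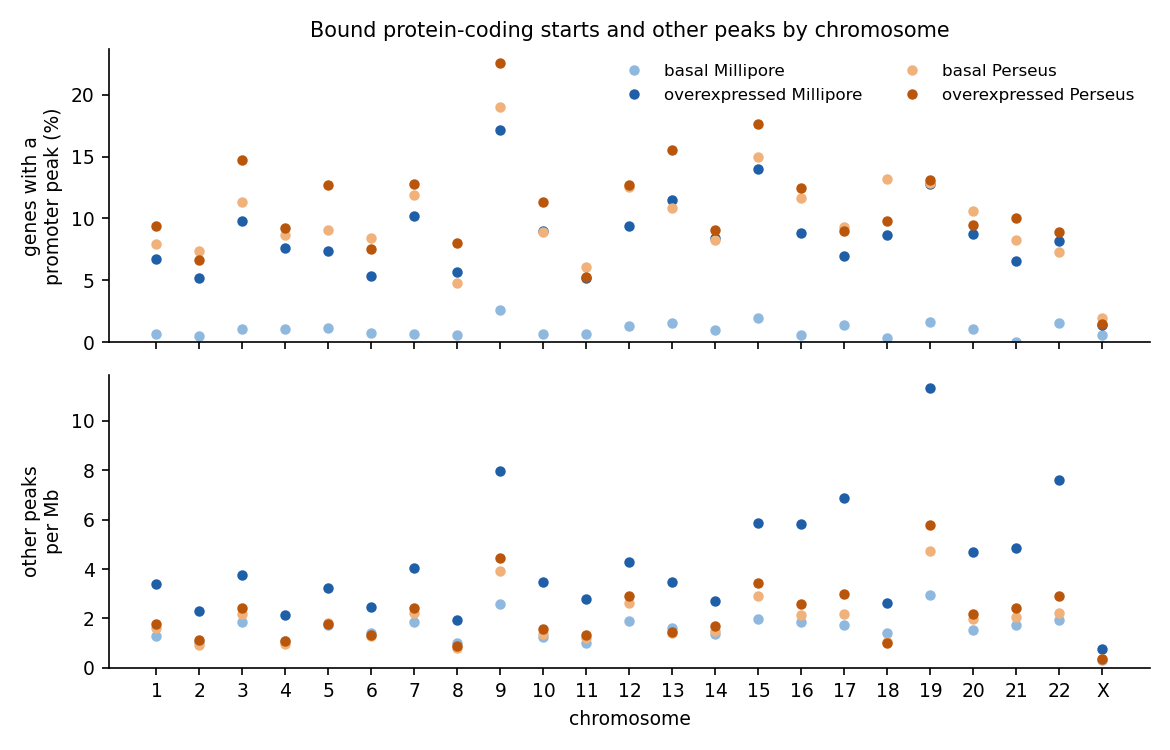
Percent of the protein-coding genes of each chromosome with a promoter peak (upper panel) and number of other peaks per Mb of known sequence (lower panel), with 1 point for each of the 4 lists. Chromosome 9 lies highest in the upper panel in each list, and the X chromosome lies at 0.754 other peaks per Mb or less in each list.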

How the data were processed

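SF-1-bound chromatin of H295R/TR SF-1 cells was sequenced after precipitation with 2 antibodies at 2 SF-1 dosages. Per their methods, the authors mapped reads to hg19 with ELAND and used SeqPeak (CisGenome) to call peaks from 3 libraries of a condition together against input. The submitters' processing notes also name CASAVA 1.6. Each deposited list gives positions on a grid of 50 bp and a rank, a score without a stated basis, and a further column that is constant. The input has no list and was not analysed here. No read counts were used, so depth is unknown and no p-value was computed.

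Peaks were compared with GRCh37 (hg19) and GENCODE 44 mapped to it, which gave 20163 protein-coding genes, 647 of them tagged as readthrough genes. No peak extended past the end of a chromosome. Coordinates are 1-based. The rank of a gene in a list is that of its best-ranked promoter peak. Shares carry 95% Wilson and differences Newcombe intervals, medians order-statistic intervals, and peaks were treated as independent. Words were searched in windows of 300 bp, and in the called peak where so stated. Word and class shares at all starts or genes served as background.

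Genes were named by a rule: the 20 genes in all 4 lists with the best worst rank, the 3 best promoter peaks of a list, 5 genes for each pair of lists that share an antibody or a dosage, all bound genes of the steroid, cholesterol, adrenal regulator and nuclear receptor lists, up to 4 of each other class, 5 divergent pairs, and up to 16 sites for the sequences. Some items that this rule names are not reported here. The members, the 26 gene classes and the tests were chosen with earlier results of these data known. The distance, ranking, overlap and window functions were tested on simulated data. Alternatives covered the distance, the starts, list length, rank, assembly gaps and word form. Software was Python 3.11.15 with pysam 0.24.0, pandas 2.3.3, numpy 2.4.6, matplotlib 3.10.9 and scipy 1.17.1, and samtools 1.23.1.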

Additional observations from a re-analysis of the deposited data

How the results depend on the processing

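Of 96 comparisons of a value with an alternative, 56 left it within its error, or within 1.5 times for a count. The lists were called on pooled libraries, so leaving out a replicate was not run. No paired analysis was possible because the files carry no replicates. The cause of the changes was not tested except where the alternative uses fewer peaks or more starts by construction. The rise of the promoter share with dosage for Millipore was 6.62 percentage points with a limit of 500 bp, 9.73 with 2 kb and 12.5 with all transcript starts. Genes with a promoter site in the basal Millipore list numbered 109, 312 and 449 under these settings, and 2588 in the overexpressed Millipore list with all transcript starts. In the better-ranked 50% of each list there were 108, 892, 1203 and 1281 genes (basal and overexpressed Millipore, basal and overexpressed Perseus). With lists cut to equal length the overexpressed Millipore list had 658 genes, and 867, 183 and 23 genes were in at least 2, at least 3 and all 4 lists. With 500 bp, 287 genes were in at least 3 lists and 19 in all 4. Counting overlapping peaks in place of genes left 271 in at least 3 lists.

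The share of bound genes with a divergent partner was 24.9% with partners of any biotype and 21.6% with overlapping pairs counted, the latter added after seeing the data. Of all protein-coding genes, 16.5% and 13.3% had a partner under these settings. Promoter minus other peaks in SF-1 consensus was reversed in the basal Millipore list within GC strata, at -3.45 percentage points, also added after seeing the data. Within those strata it was -10.6 in the basal and -8.66 in the overexpressed Perseus list. In the called peak body it was -9.65 and -8.60. With the 8-letter core CAAGGNCA it was -24.3 and -25.1, and -11.8 in the overexpressed Millipore list. In the basal Perseus list it was -18.8 with 500 bp and -13.6 with 2 kb.

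The median position of promoter peaks with 500 bp, 2 kb and all transcript starts was 84, 184 and 26 bp in the overexpressed Millipore list, 22, 78.5 and -5 bp in the basal Perseus list and 79, 168 and 8 bp in the overexpressed Perseus list. In the basal Millipore list it was 41.5, 342 and 44.5 bp in that order. Leaving out readthrough genes or chromosome 9, both added after seeing the data, kept each list's count of genes within 1.5 times.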
